A study of Bos taurus with 29 samples.

Results

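Endometrial explants cultured with a single in vitro produced embryo (EE-IVF, 3 libraries) were compared with explants cultured with no embryo (EE, 3 libraries), 6 of the 29 samples of the series. The explants are pieces of bovine uterine lining from a slaughterhouse source, kept in culture, and the embryo was at day 7. Another explant group, EE-AI with 3 libraries, held 1 in vivo produced embryo of day 7, and it entered the same statistical model and is given beside the comparison. The libraries were chosen by their labels, and they were matched by the order of the sample numbers in their titles, so that 25, 26 and 27 of EE-IVF stood with 13, 14 and 15 of EE, 12 numbers apart, and with 19, 20 and 21 of EE-AI. The matched libraries are called pairs 1, 2 and 3, and each library carries the number of its pair. The labels do not say that the libraries of a pair share an animal or a culture, nor whether the replicates came from separate animals, so p-values measure only the spread between these samples. The length of the culture, and whether the embryo was taken off before RNA was extracted, are not stated in the labels. All 3 groups share the explant culture, and whole tissue was sequenced, so fewer cells of a type and less RNA per cell cannot be told apart.

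The endometrium has a luminal and glandular epithelium over a stroma with vessels and immune cells. It feeds the early embryo with its secretions before implantation and receives signals from it in return. In cattle the elongating conceptus later secretes interferon tau, which restrains the luteolytic pulses of prostaglandin F2 alpha from the endometrium and so keeps the corpus luteum secreting progesterone. The comparison asks whether the explant already differs in gene expression in the presence of a day 7 embryo made in vitro.

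Each explant library held between 6067951 and 8083238 counted reads, with 17656 to 17806 genes detected and 13033 to 13451 genes at 1 FPKM or more (fragments scaled by gene length and library total). The 100 most abundant genes took between 17.4% and 19.0% of the counts of a library. No 2 libraries were identical. The table names 18180 genes by Ensembl ID, and 0 of these IDs stand in the reference table used here, so the files do not pair them with symbols. Marker genes of epithelium, stroma or embryo and lists of interferon or prostaglandin genes therefore could not be looked up, and the labelled tissue could not be checked against its markers. At most 2 IDs per direction are printed.

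The widest separation between the 2 groups belonged to a few genes that were higher with the in vitro embryo in all 3 pairs. ENSBTAG00000005973 was at 85.0, 21.9 and 43.1 CPM in EE-IVF 1, 2 and 3 (CPM, counts scaled to a common library size with TMM factors), against 4.14, 5.45 and 5.39 CPM in EE 1, 2 and 3. The lowest EE-IVF library thus lay above the highest EE library, and the levels within EE were close to one another while those within EE-IVF were far apart. Per length, the gene averaged 15.0 ± 9.96 FPKM in EE-IVF and 1.49 ± 0.182 FPKM in EE (SD, n = 3 each). The counts behind these values were 575, 163 and 293 reads in EE-IVF and 29, 36 and 35 reads in EE. The log2 fold change was 3.38 with a 95% interval from 1.43 to 5.33, and the edgeR quasi-likelihood test adjusted by Benjamini-Hochberg gave 0.999, so the gene did not pass the threshold of 0.05. This gene was singled out after its values were seen.

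EE-AI 3 carried the same gene at a high level. ENSBTAG00000005973 was at 5.64, 6.10 and 93.5 CPM in EE-AI 1, 2 and 3. EE-AI 1 and EE-AI 2 were near the EE level and EE-AI 3 was above all EE-IVF libraries. In EE-IVF against EE-AI the log2 fold change was 1.10 with a 95% interval from -0.65 to 2.85, and in EE-AI against EE it was 2.28 with an interval from 0.24 to 4.32. Without EE-AI 3, a setting chosen after seeing the data, EE-IVF against EE gave 3.19 with an interval from 2.29 to 4.08 and an edgeR adjusted p of 0.166. Without EE-AI altogether it gave 3.16, with an interval from 2.28 to 4.05 and an edgeR adjusted p of 0.822. The interval was narrower in both fits, and the adjusted p was above the threshold in both. The comparisons with EE-AI moved most without EE-AI 3: EE-IVF against EE-AI then gave 2.95 with an interval from 1.88 to 4.01 and an edgeR adjusted p of 0.853, and EE-AI against EE gave 0.24 with an interval from -0.98 to 1.46.

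The pattern was shared by a small set. In 5 of 15077 genes (0.0332%) the lowest EE-IVF library was more than 2-fold above the highest EE library, and in 0 genes the lowest EE library was more than 2-fold above the highest EE-IVF library. By the same measure 0 genes (0%) separated EE-IVF from EE-AI, and 2 genes (0.0133%) were higher in EE-AI than in EE. Apart from ENSBTAG00000005973, the 5 genes had at most 7 reads in any EE library. They thus passed the low-count filter through EE-IVF and EE-AI 3, where they were high. The 5 were also picked by their separation in these same libraries, so their fold changes and p-values are no independent support for a difference. The log2 fold changes of the 5 genes lay between 2.59 and 4.62, with unadjusted edgeR p between 3.34e-04 and 0.0198, and 0 of the 5 passed after adjustment. These sizes depended on single libraries, to a differing degree among the 5 genes. With a library or a pair left out, the gene that moved most ranged from 2.60, without EE-IVF 1, to 6.95, without EE-IVF 3. The fit without EE-IVF 3 still held EE-AI 3, with 128 reads of this gene, and EE 3, with 1 read. The 6.95 thus did not come from EE-IVF and EE libraries alone. Without pair 3 altogether the gene gave 4.34. The lowest value, 1.78 without EE-IVF 1, belonged to another gene, which ranged up to 3.86. All values of the 5 genes were positive. In 5 of 5, EE-AI 3 was more than 2-fold above the other two EE-AI libraries and above all 3 EE libraries. It lay within the range of the EE-IVF libraries in 3 of the 5 and above it in 2.

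Besides ENSBTAG00000005973, 2 of the 5 genes stand in the next 2 rows of the deposited table, whose row order is not explained in the sources used here. The first of these had 160, 27 and 56 reads in EE-IVF 1, 2 and 3, against 2, 7 and 2 reads in EE. It had 6, 6 and 188 reads in EE-AI 1, 2 and 3, so it again was low in EE-AI 1 and EE-AI 2 and high in EE-AI 3. The second had 130, 15 and 31 reads in EE-IVF, against 2, 4 and 1 reads in EE. In EE-AI it had 1, 3 and 128 reads. In all 3 rows EE-IVF 1 was the highest EE-IVF library and EE-IVF 2 the lowest. Of the reads of these 3 rows together, ENSBTAG00000005973 took between 66.5% and 79.5% in the EE-IVF libraries, 70.3% in EE-AI 3, and between 76.6% and 92.1% in the EE libraries. Whether reads are shared between the 3 rows was not tested. A further gene of the 5, with 16, 11 and 11 reads in EE-IVF against 1, 3 and 2 reads in EE, had 0, 2 and 21 reads in EE-AI.

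**Figure D1:**
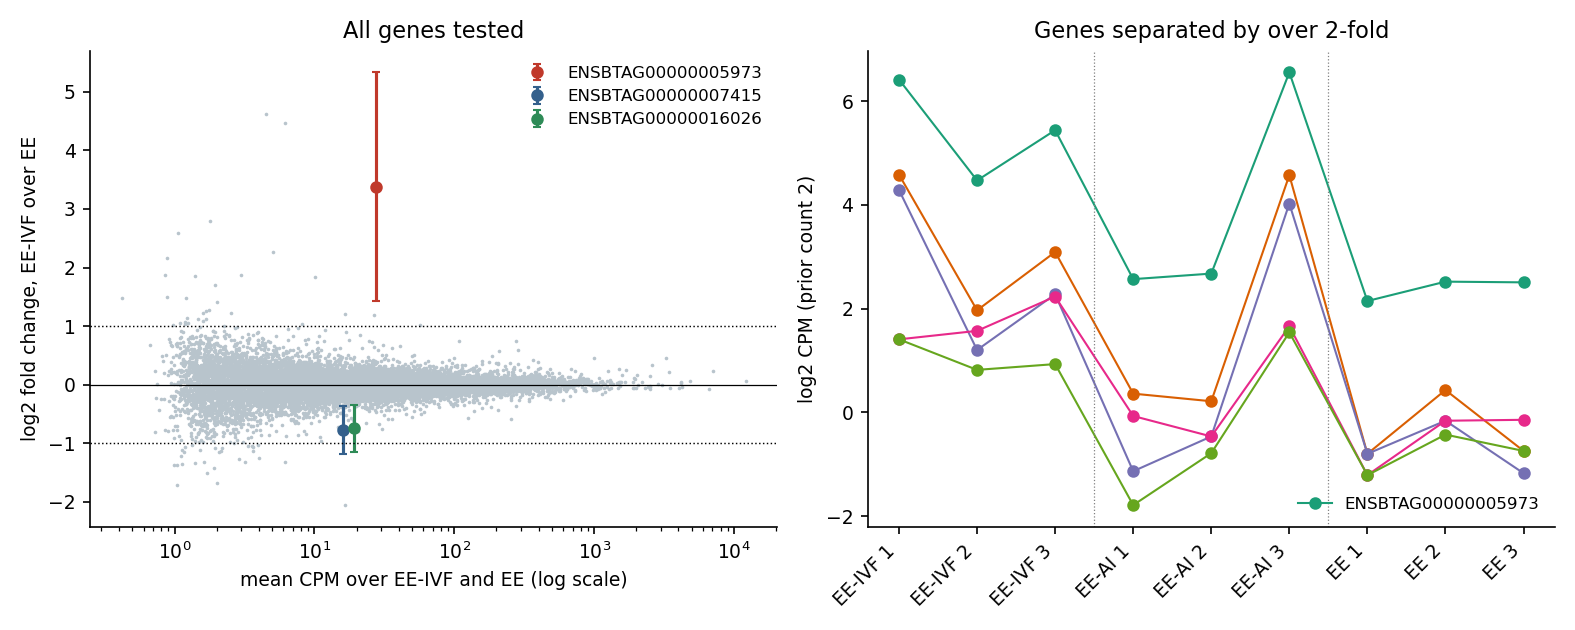
Left, log2 fold change of EE-IVF over EE for all 15077 genes tested against mean CPM over the 6 libraries (log axis), with the 95% interval of 3 genes and dotted lines at a 2-fold difference. Right, log2 CPM in each of the 9 libraries for the 5 genes whose EE-IVF libraries all lie more than 2-fold above all EE libraries, with EE-AI 3 beside or above the EE-IVF libraries in each of them.

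A different gene was found in EE-IVF libraries and hardly anywhere else. ENSBTAG00000052217 had 383, 0 and 240 reads in EE-IVF 1, 2 and 3, which is 56.6, 0 and 35.3 CPM, against 1, 0 and 0 reads in EE 1, 2 and 3. EE-AI 1, 2 and 3 had 0 reads each. In the EE-IVF libraries that held it, its count was above that of 78.2% and 68.4% of all genes in the table. A count of 0 allows up to 3 reads, or 0.402 CPM, in EE-IVF 2, as far as counting error goes. It was the 1 gene of 18180 with at least 50 reads in an EE-IVF library and at most 1 read in every EE library, and 0 genes met the reverse rule. Because it was present in 2 libraries, the low-count filter, which asks for as many libraries as the smallest group holds, left it out. With no filter, the same edgeR model gave it an adjusted p of 6.60e-04, the 1 gene called among 18177. The count rule used the same reads, so this p adds no independent support. The call rests on EE-IVF 1 and EE-IVF 3, since EE-IVF 2 had no read of the gene, and in EE-IVF it was thus not a feature of all 3 libraries.

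The 2 genes with the lowest p among those lower with the embryo differed by less than ENSBTAG00000005973. ENSBTAG00000007415 was at 11.5, 8.72 and 15.1 CPM in EE-IVF 1, 2 and 3, against 25.4, 16.6 and 18.0 CPM in EE 1, 2 and 3. The groups did not overlap, and EE-IVF was lower in 3 of 3 pairs. The gene was picked by its low p in the model with pairs, so its direction in each pair adds no support. Of the 20 genes with the lowest p, 20 had the same direction in all 3 pairs. The share of all genes whose groups did not overlap was not counted. The log2 fold change was -0.77 with a 95% interval from -1.19 to -0.36, with an edgeR adjusted p of 0.999. In EE-AI it was at 9.62, 7.99 and 9.74 CPM, with a log2 fold change of -1.13 in EE-AI against EE and of 0.36, with an interval from -0.08 to 0.80, in EE-IVF against EE-AI. Both embryo groups were set against the same EE libraries, so these differences are not independent.

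ENSBTAG00000016026 was at 6.36, 24.3 and 11.0 CPM in EE-IVF 1, 2 and 3, against 10.6, 48.7 and 14.8 CPM in EE 1, 2 and 3. The groups overlapped, since pair 2 was high in both, while EE-IVF was lower within each of the 3 pairs. This direction within pairs again follows the choice by p and adds no support. The log2 fold change was -0.74 with an interval from -1.14 to -0.34, with an edgeR adjusted p of 0.999. In EE-AI it was at 11.4, 38.5 and 11.0 CPM, again highest in pair 2. The same gene differed between pairs with an edgeR adjusted p of 1.83e-04.

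The gene with the lowest p of all in EE-IVF against EE, 2.17e-04 before and 0.999 after edgeR adjustment, was at 6.50, 1.61 and 5.88 CPM in EE-IVF 1, 2 and 3, against 2.28, 0.303 and 1.23 CPM in EE. It was higher in EE-IVF in each pair, although the groups overlapped, and its log2 fold change was 1.87 with an interval from 1.14 to 2.61. This gene too was picked by its p, so its direction in each pair adds no support. The counts behind it were low, at 44, 12 and 40 reads in EE-IVF 1, 2 and 3 and 16, 2 and 8 reads in EE. In EE-AI it was at 3.48, 1.31 and 2.50 CPM, between the other groups within each pair.

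**Figure D2:**
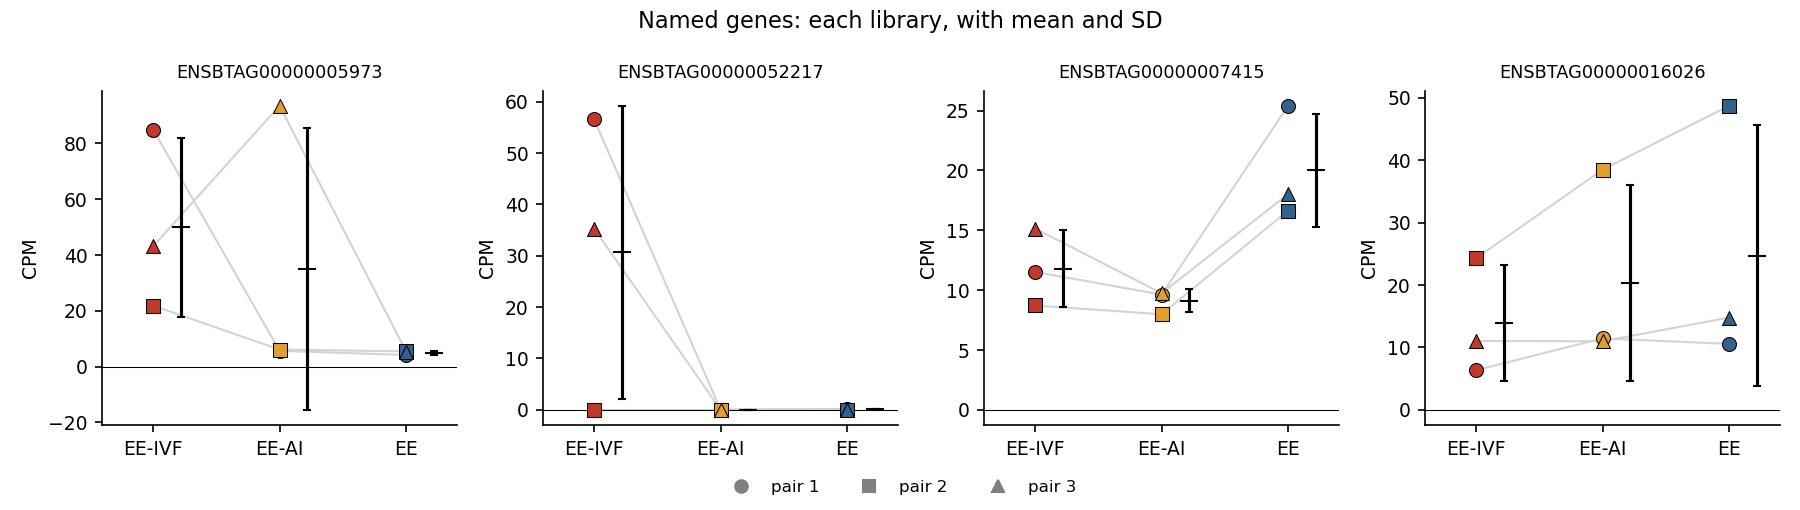
CPM of 4 genes in each library (points, shaped by pair and joined within a pair), with the mean and SD of each group beside them (n = 3). ENSBTAG00000005973 and ENSBTAG00000052217 were high in EE-IVF libraries, the first also in EE-AI 3 and the second at 0 in EE-IVF 2, and ENSBTAG00000007415 and ENSBTAG00000016026 were lower in EE-IVF than in EE within each pair.

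Over the whole table, 0 of 15077 genes (0%) passed an edgeR adjusted p of 0.05 in EE-IVF against EE. At an unadjusted p under 0.05 there were 282 genes (1.87%), 134 higher and 148 lower in EE-IVF, DESeq2 with the same pairs called 0 genes with 105 at that unadjusted p, and limma voom called 0 with 307. Of the 20 genes with the lowest p, 11 were higher and 9 lower in EE-IVF. The share of genes at an unadjusted p under 0.05 was below the 5% expected of well-calibrated p-values with no difference, and 4.65% of genes had a p between 0 and 0.1, against 12.7% between 0.9 and 1. EE-IVF against EE-AI had 1243 genes (8.24%) at an unadjusted p under 0.05, 840 of them higher in EE-IVF, and 0 passed adjustment (0%). DESeq2 with the same pairs called 16 genes in that comparison, and edgeR without pair 1 called 11. EE-AI against EE also had 1243 genes (8.24%), 473 higher in EE-AI, and 0 passed adjustment (0%). Whether the number of such genes differs between the 3 comparisons was not tested.

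**Figure D3:**
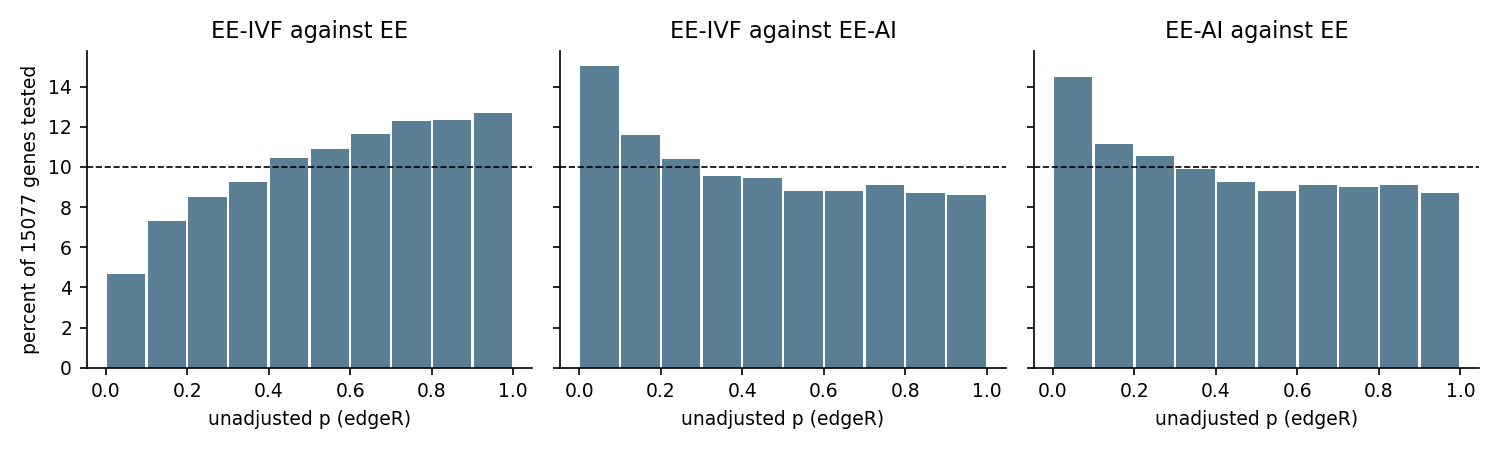
Percent of 15077 genes in steps of 0.1 of the unadjusted edgeR p, for the 3 comparisons between explant groups, with a dashed line at an even share. EE-IVF against EE had 4.65% of genes in the lowest step, EE-IVF against EE-AI 15.0% and EE-AI against EE 14.5%.

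The intervals bound, for each gene singly, how large a difference could have been after TMM scaling. The median size of the log2 fold change between EE-IVF and EE was 0.10, with a median standard error of 0.17. The median over all genes was 0.00 after TMM scaling, which sets most genes near no difference. A shift shared by most genes would therefore not show. For 13180 of 15077 genes (87.4%) the 95% interval lay within a 2-fold difference in either direction, and for 9551 genes (63.3%) it lay within 1.5-fold. The share depended on the level of the gene. Between 10 and 100 CPM, 8066 of 8193 genes (98.4%) were bounded within 2-fold, whereas between 1 and 10 CPM 2873 of 4574 genes (62.8%) were. These intervals hold for each gene singly and are not adjusted over genes, so they do not give the size of difference that the adjusted test could detect. The 3.38 of ENSBTAG00000005973 did not pass it, with a standard error of 0.87, above the median of 0.17.

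The differences within the 3 pairs had little in common across genes. Between 1 EE-IVF library and its matched EE library, the SD of the log2 CPM difference over 15029 genes at 1 CPM or more was 0.34 in pair 1, 0.42 in pair 2 and 0.42 in pair 3. A difference of more than 2-fold was seen in 282 genes in pair 1 (117 higher and 165 lower in EE-IVF), in 495 genes in pair 2 (254 higher and 241 lower) and in 518 genes in pair 3 (381 higher and 137 lower). In pair 3 the higher genes outnumbered the lower ones, and in pair 1 they did not. In all, 1125 genes passed 2-fold in some pair, and 968 of them (86.0%) did so in a single pair. In 61 genes 2 pairs passed in the same direction, in 90 genes pairs passed in opposite directions, and in 6 genes all 3 pairs were more than 2-fold higher. No gene was more than 2-fold lower in all 3. These 6 were the 5 separated genes and the gene with the lowest p.

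Across genes, the within-pair differences of EE-IVF from EE correlated with r = 0.02 between pairs 1 and 2, -0.02 between pairs 1 and 3, and -0.21 between pairs 2 and 3. No library is shared between pairs, and genes are not independent replicates, so these values are a description. The direction was the same in all 3 pairs in 2956 of 15029 genes (19.7%), against 4625 of 15033 genes (30.8%) for EE-IVF and EE-AI and 4204 of 15019 genes (28%) for EE-AI and EE. With 3 pairs, many genes share a direction even with no difference between groups, so these are not counts of genes that respond.

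**Figure D4:**
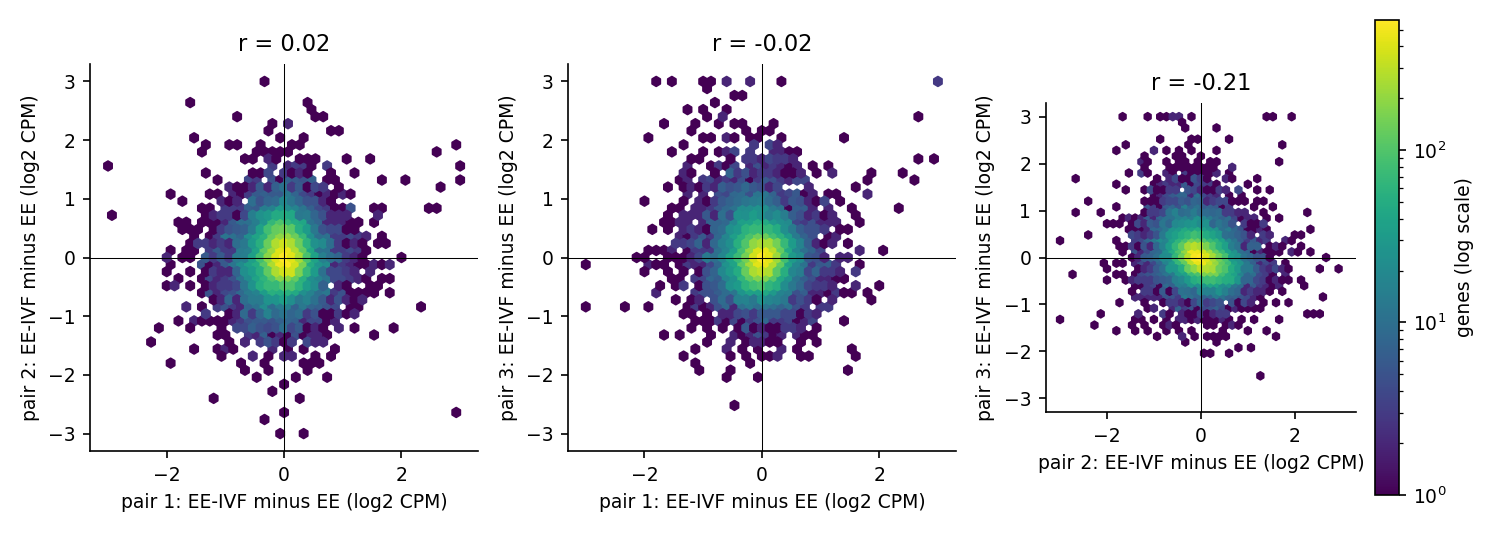
Difference in log2 CPM between EE-IVF and EE within one pair against the same difference in another pair, for 15029 genes (colour, genes per hexagon on a log scale; values beyond 3 are drawn at 3). The clouds are round for pairs 1 and 2 and pairs 1 and 3, with r of 0.02 and -0.02, and tilt downwards for pairs 2 and 3, with r of -0.21.

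Variation between pairs was wider than variation between the 3 explant groups. In the same edgeR model 4483 of 15077 genes (29.7%) differed between the 3 pairs at an adjusted p under 0.05. The pair accounted for a median of 53.6% of a gene's variance in log2 CPM, over 15049 genes at 1 CPM or more. The group, taken over EE-IVF, EE-AI and EE together, accounted for 11.7%, with a median of 27.5% for the rest. The 11.7% is thus not the share of EE-IVF against EE alone. The group had 2 degrees of freedom and the rest 4, so that per degree of freedom the group's median share was no larger than that of the rest. The SD of the log2 CPM difference between an EE-IVF library and the EE library of its pair lay between 0.34 and 0.43. Between libraries of the same group in different pairs it lay between 0.57 and 0.80. Matched explants with and without the embryo thus resembled each other more than any 2 explants of one group did. The biological coefficient of variation was 0.139 with the pair in the model and 0.271 without it. The labels do not say what separates the pairs, and animal, day or stage of the cycle cannot be told apart.

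**Figure D5:**
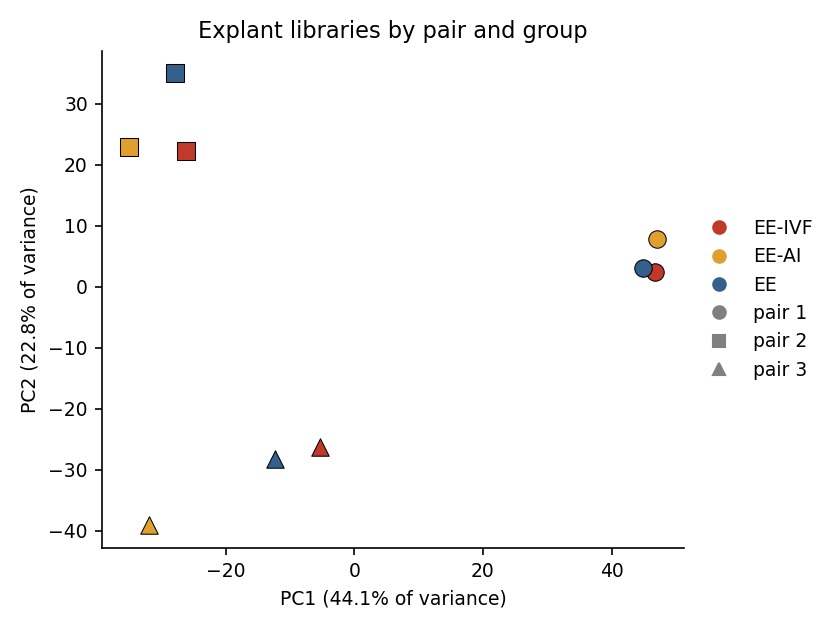
First and second principal components of log2 CPM over 15077 genes for the 9 explant libraries, coloured by group and shaped by pair, with 44.1% and 22.8% of the variance. The libraries group by pair: on the first component pair 1 lies between 44.9 and 47.1 in all 3 groups, and pairs 2 and 3 lie below 0.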

How the data were processed

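The authors deposited whole read counts per gene and FPKM for the 9 explant libraries. Per the labels' protocols these are libraries from a stranded mRNA kit, read in pairs. STAR and featureCounts, besides cutadapt, Trim Galore and DESeq2, are listed in the submitters' processing notes without a version, with build and annotation "not given in the sources used here". FPKM as deposited equalled the count divided by a fixed whole gene length and the library total in 18177 of 18177 genes with counts (relative tolerance 1e-06), so lengths were read from them.

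Genes were kept with filterByExpr by group (15077 of 18180), scaled by TMM and fitted with edgeR's quasi-likelihood model with group and pair over all 9 libraries, with Benjamini-Hochberg adjustment over all genes and a threshold of 0.05. The pair follows the order of the title numbers. After centring on group means, libraries of a pair correlated across genes with r between 0.416 and 0.738 (9 correlations). All were above 0.1, which was taken as the sign that they pair. Libraries of other pairs and other groups had r between -0.545 and 0.042 (18 correlations). This check is a description without a test. Log2 CPM carry a prior count of 2. Gene lists and symbol-based naming rules could not be applied. IDs were printed for the 2 genes with the lowest p among those lower in EE-IVF, for the gene found by the count rule, and for 1 gene chosen after its values were seen. The comparison, lists and rules were chosen with earlier results of these data known. Alternatives were the model without the pair, without EE-AI, RLE factors, no filter, DESeq2, limma voom, and leaving out each library or pair. The procedure was also run on simulated counts whose spread followed gene level only, without differences between single genes. The outcome is not given here and is no measure of how the tests do in these data. The corpus luteum table was not used, and 1 gene is not reported singly here. Software was edgeR 4.0.16, DESeq2 1.42.0 and limma 3.58.1 under R 4.3.3, with matplotlib 3.10.9 under Python 3.11.15 for figures.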

Additional observations from a re-analysis of the deposited data

How the results depend on the processing

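EE-IVF against EE called 0 genes with RLE factors, DESeq2, limma voom, no replicate block and no EE-AI libraries. It called 1 with no filter and 1 without EE-AI replicate 3, which was ENSBTAG00000052217 each time, and likewise 1 without EE-IVF replicate 2 and the replicate block together. Leaving out 1 library or 1 pair gave 0 to 1, the call being that gene without EE-IVF replicate 2, EE replicate 2 or pair 2. In the fits with fewer libraries, EE-AI replicate 3 left out included, the low-count filter asks for fewer libraries and admits the gene through EE-IVF 1 and 3, where it is high, so these calls are no support for a difference. Genes at an unadjusted p under 0.05 numbered 282, with 56 under no replicate block, 105 under DESeq2, 85 without EE-IVF replicate 2 and the block together, and 278 to 580 when a library or pair was left out. The highest, 580, was without pair 3, with 468 without EE-IVF replicate 3 and 459 without EE replicate 3, and the cause was not tested. EE-IVF against EE-AI called 16 genes by DESeq2, 1 with no filter, 1 without EE-AI replicate 3, 1 without EE-IVF replicate 2 and the block together, and 0 to 11 with a library or pair left out, the 11 being without pair 1, against 0 with all libraries in edgeR. The direction of the 8 genes followed was the same in each alternative that tested them. The log2 fold change of ENSBTAG00000005973 ranged from 2.16 to 4.27 when a library or pair was left out. The lists could not be run for want of symbols. With 3 libraries per group and 6067951 to 8083238 counts each, single-gene intervals were widest in genes below 10 CPM. The 3.38 of ENSBTAG00000005973 did not pass adjustment. Its standard error was 0.87, against a median of 0.17 over the genes tested, so it is not a guide to what other genes would need.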

Other observations

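Differences between EE-IVF and EE varied little with gene length, as read from the deposited FPKM. The median log2 fold change was 0.00 in the 2437 genes under 1000 bases and 0.01 in the 2225 genes of 8000 bases or more. Within pair 3 the median difference was higher at each step of length, at -0.015 under 1000 bases, -0.010 from 1000 to 2000, -0.0041 from 2000 to 4000, 0.0051 from 4000 to 8000 and 0.018 at 8000 or more. Pairs 1 and 2 had no such order, with medians between -0.0022 and 0.019 in pair 1 and between -0.012 and 0.0053 in pair 2. The mean length weighted by counts lay between 4.40 and 4.46 kb in the EE-IVF libraries and between 4.40 and 4.46 kb in the EE libraries.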
